A study of Mus musculus with 2 samples.

Results

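The IL-1 family signals through a small set of secreted ligands and paired receptors, and 10 of its genes were followed in mouse palatal gingiva out of the 32285 genes in the count tables. The 10 genes were chosen by symbol and by role. They were the agonist ligands Il1a, Il1b, Il18 and Il33, the receptor antagonist Il1rn, the signalling receptor Il1r1 with its shared accessory chain Il1rap, the decoy receptor Il1r2, the IL-33 receptor Il1rl1 and the IL-18 receptor chain Il18r1. Palatal gingiva of female C57BL/6J mice, 8 to 12 weeks old, was harvested on day 4 after 3 µl of a ligand solution at 1 µg/ml had been placed on the palate under an oral appliance for 1 h. In the CpG ODN group the ligand was a synthetic DNA oligonucleotide that engages TLR9, and in the LPS group it was Porphyromonas gingivalis lipopolysaccharide, given as a TLR2/4 ligand. Both groups were otherwise wild-type and treated alike. Each ligand has 1 single-cell RNA-seq library, prepared from a pool in which 4 mice contributed the same number of cells. The mice of a pool cannot be told apart, so the ligands are compared without a test, and no untreated sample was analysed here.

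IL-1α and IL-1β bind the same receptor, IL-1R1, which signals only after the accessory protein encoded by Il1rap has joined the complex. The antagonist encoded by Il1rn occupies IL-1R1 without recruiting the accessory protein, and the decoy IL-1R2 binds the ligands but lacks a signalling domain. IL-1β and IL-18 are made as precursors that caspase-1 cleaves in an inflammasome, whereas IL-1α and IL-33 are stored in barrier cells and act as alarm signals when the cells are damaged. Keratinocytes are known to hold IL-1α, the intracellular form of the antagonist, IL-18 and IL-33, and neutrophils and macrophages are known sources of IL-1β. A gene-level count made from the 3′ end of transcripts does not separate the secreted from the intracellular form of Il1rn, nor the soluble from the membrane form of Il1rl1.

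On the GRCm38 assembly (GENCODE M21) the ligand genes Il1a (chr2:129299610-129309972, minus strand) and Il1b (chr2:129364570-129371139, minus strand) are neighbours within 71.53 kb with no other protein-coding gene between them. Il1rn (chr2:24336853-24351494, plus strand) lies on the same chromosome next to the IL-36 and IL-38 genes Il1f8, Il1f9, Il1f6, Il1f5 and Il1f10, the 6 genes filling 198.334 kb. The receptor genes Il1r2, Il1r1, Il1rl1 and Il18r1 share 477.627 kb of chromosome 1 (chr1:40074079-40551705) with Il1rl2 and Il18rap. Il18 (chr9:50554827-50581840), Il33 (chr19:29925114-29960718) and Il1rap (chr16:26581704-26730117) stand apart, all on the plus strand.

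The promoters of the 4 ligands and the antagonist are shown because the levels of these genes by cell group are the main subject below. Each sequence runs from 250 bases before to 50 bases after a RefSeq transcript start (GRCm38.p6) on the strand of the gene. Capitals mark matches, on either strand, to the AP-1 element TGANTCA, where N is any base, and to the TATA element TATAAA.
Il1a (chr2:129309923-129310222, minus strand): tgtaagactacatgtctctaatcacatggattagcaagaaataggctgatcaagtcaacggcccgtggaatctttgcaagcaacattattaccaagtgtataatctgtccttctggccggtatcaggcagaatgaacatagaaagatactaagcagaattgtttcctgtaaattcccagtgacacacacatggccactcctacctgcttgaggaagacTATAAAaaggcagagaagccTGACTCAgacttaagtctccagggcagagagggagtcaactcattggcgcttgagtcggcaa
Il1b (chr2:129371090-129371389, minus strand): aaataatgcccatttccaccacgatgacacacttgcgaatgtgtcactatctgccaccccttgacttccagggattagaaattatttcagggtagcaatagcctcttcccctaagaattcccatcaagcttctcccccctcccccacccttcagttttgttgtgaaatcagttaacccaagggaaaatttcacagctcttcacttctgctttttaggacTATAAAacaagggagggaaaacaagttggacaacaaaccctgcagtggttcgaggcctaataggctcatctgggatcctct
Il1rn (chr2:24336610-24336909, plus strand, 1 of 3 RefSeq starts): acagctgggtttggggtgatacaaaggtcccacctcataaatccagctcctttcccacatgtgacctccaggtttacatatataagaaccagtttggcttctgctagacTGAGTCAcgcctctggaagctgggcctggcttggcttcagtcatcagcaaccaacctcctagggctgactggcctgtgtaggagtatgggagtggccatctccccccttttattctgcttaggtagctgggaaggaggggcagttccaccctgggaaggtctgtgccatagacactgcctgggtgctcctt
Il18 (chr9:50554450-50554749, plus strand): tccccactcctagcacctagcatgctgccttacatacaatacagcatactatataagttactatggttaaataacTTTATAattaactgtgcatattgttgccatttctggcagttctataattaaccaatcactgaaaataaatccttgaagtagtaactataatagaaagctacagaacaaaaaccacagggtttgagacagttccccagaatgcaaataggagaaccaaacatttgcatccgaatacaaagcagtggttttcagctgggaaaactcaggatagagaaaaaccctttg
Il33 (chr19:29924863-29925162, plus strand, 1 of 2 RefSeq starts): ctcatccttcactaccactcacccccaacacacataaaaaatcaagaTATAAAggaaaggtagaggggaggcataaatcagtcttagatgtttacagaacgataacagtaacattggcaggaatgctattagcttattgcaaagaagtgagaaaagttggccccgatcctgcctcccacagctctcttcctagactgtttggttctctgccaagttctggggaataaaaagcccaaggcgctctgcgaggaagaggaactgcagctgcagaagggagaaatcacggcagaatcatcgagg

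Il1a carried an AP-1 match at positions -12 to -6 and a TATA match at -32 to -27 from the transcript start, and Il1b a TATA match at -31 to -26. The Il1rn window held an AP-1 match at -141 to -135. The Il18 match was a TATA element read on the opposite strand at -175 to -170, and the Il33 match lay at -203 to -198. Of 32851 RefSeq promoter windows of the same length, 7.81% held the AP-1 letters and 13.6% the TATA letters. These matches describe the letters of the windows and were not related to the levels by any test.

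The CpG ODN library held 6219 barcodes and 72173148 UMIs, and 4888 of its barcodes passed the minimum of 800 detected genes. The LPS library held 2016 barcodes and 38656738 UMIs, and 1277 of its barcodes passed. A UMI marks 1 captured RNA molecule. The kept LPS cells were deeper, with a median of 22680 UMIs against 11077.5, and 5 barcodes occurred in both libraries, 1 of them among kept cells. Clustering without the 10 genes and without a list of 32 pathway genes gave 29 clusters. Epithelial-like cells made up 3858 and 1038 of the kept cells, and the other classes were fibroblast-like (234 and 53), myeloid-like (34 and 13), B-like (285 and 69), plasma or germinal-centre B-like (236 and 4), T-like (81 and 26), endothelial-like (49 and 24), mural-like (76 and 22) and Schwann-like (23 and 11). An unnamed cluster led by Muc5b and Tff2 held 12 and 17 cells. Here and below, a pair of values gives the CpG ODN library first and the LPS library second. Levels are the share of a gene in all UMIs of the summed cells, in CPM, and their intervals (95%) cover counting error only, not the spread between mice or cells.

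The epithelial-like cells were divided by their leading keratins and other genes. They formed basal-like cells (1045 and 247), Mcm-led cells with replication genes (164 and 27), dividing-like cells (231 and 57), cells with Krt76 and little Krt10 (1309 and 252), cells with Krt76 and Krt10 (762 and 211) and upper-like cells with the cornified envelope gene Lor (79 and 47). Smaller groups were led by Krt4 (48 and 43), H19 (105 and 87) and Odam (17 and 17), and 2 gland-like groups were led by Reg3g (64 and 36) and Ltf (34 and 14). Odam is a gene of the junctional epithelium, which seals the gingiva to the tooth, but these cells are named here by their leading gene. The limits of Krt76 (3000 CPM) and Krt10 (1000 CPM) that separate the layers were set after the data had been seen. The mix differed between the libraries, with upper-like cells at 2.05% and 4.53%, H19-led cells at 2.72% and 8.38% and Odam-led cells at 0.441% and 1.64% of the epithelial-like cells, so values over the whole epithelium are set beside values within a layer.

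**Figure D1:**
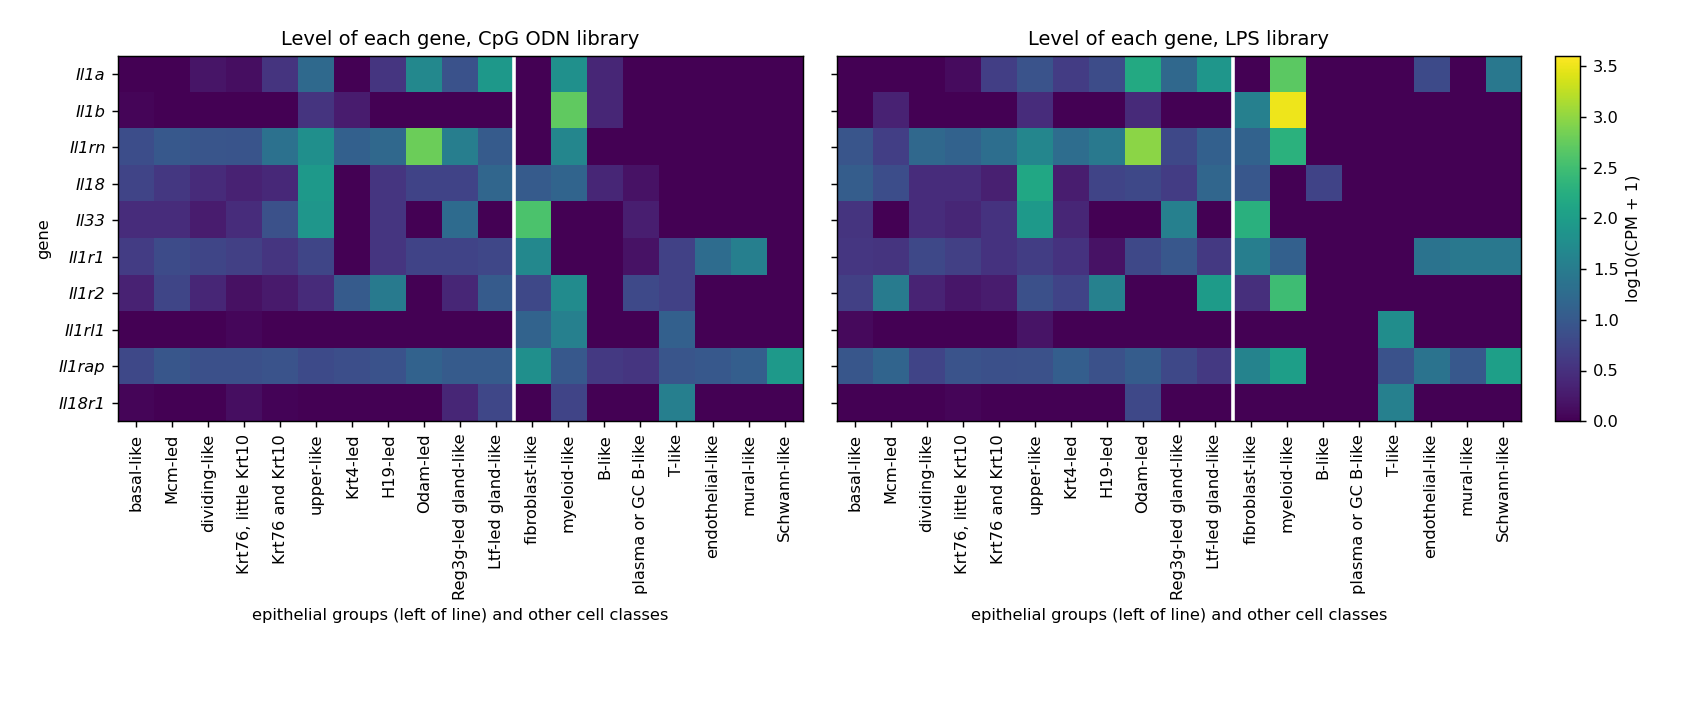
Level of each of the 10 genes (rows, log10 of CPM + 1, color) in the epithelial groups left of the white line and the other cell classes right of it, in the CpG ODN library (left) and the LPS library (right). Il1b was brightest in myeloid-like cells, Il1rn in Odam-led cells, Il33 in fibroblast-like and upper-like cells and Il18 in upper-like cells in both libraries.

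By UMIs the most abundant of the 10 genes was the antagonist Il1rn, and almost all of it came from epithelium. Epithelial-like cells held 99.1% and 98.1% of its UMIs. Its level in Odam-led cells was 624 CPM (527–733) after CpG ODN and 953 CPM (876–1034) after LPS. In both libraries this was the highest level of any class or layer, and the interval did not meet that of the next group. The neutrophil-like barcodes described below, which are no class or layer, were higher, at 807 CPM (296–1756) and 1769 CPM (1193–2525). After CpG ODN the intervals of these barcodes and of Odam-led cells overlapped. Il1rn was counted in 16 of 17 and 17 of 17 Odam-led cells. Per cell it ranged from 0 to 1318 CPM with a median of 398 after CpG ODN, and from 47.1 to 2981 CPM with a median of 606 after LPS. Nearly every one of these cells therefore held the transcript, at levels that overlapped widely between the libraries. With each cell thinned to 1500 UMIs, the expected share of Odam-led cells with an Il1rn UMI was 47.4% and 51.4%. B-like cells, a class that should lack the gene, had 0 Il1rn UMIs in 285 and 69 cells.

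The 17 and 17 Odam-led cells carried 148 and 564 Il1rn UMIs. The 2 cells with the highest Odam level held the highest Il1rn levels of the CpG ODN library, 1318 and 1175 CPM, and the 2 highest in Il1rn of the LPS library, at 2981 and 2524 CPM, were likewise the 2 highest in Odam. Neutrophils also express Il1rn, so the neutrophil markers were looked at in these cells. Of the 10 genes on that list, 4 and 5 had a UMI, and the summed level was 5614 and 24899 CPM. S100a8 and S100a9 alone made up 603 and 4813 CPM after CpG ODN and 13111 and 11472 CPM after LPS, and keratinocytes also use these genes. Mxd1 was present as well, at 194 and 312 CPM, and G0s2 had 1 and 1 UMIs. The other 6 genes of the list were at or near 0, with 0 and 1 UMIs of Csf3r, and 0 of Cxcr2, Ly6g, Retnlg, Mmp9 and Clec4d in both libraries. The 14 epithelial markers summed to 40666 and 42684 CPM in the same cells.

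**Figure D2:**
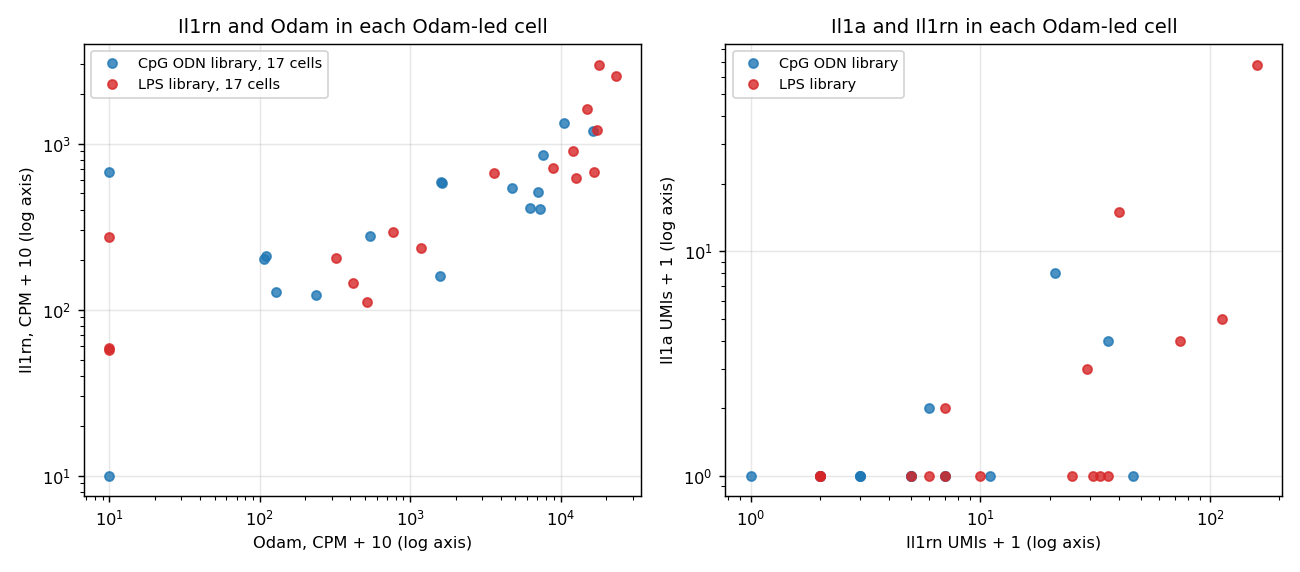
Each point is 1 of the 17 Odam-led cells of a library, with Il1rn against Odam (left, CPM + 10, log axes) and Il1a against Il1rn (right, UMIs + 1, log axes). The 2 cells highest in Odam were the 2 highest in Il1rn in both libraries, and all 3 and 6 cells with an Il1a UMI also had Il1rn.

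Outside the Odam-led cells, Il1rn rose through the layers. It stood at 6.19 CPM (4.72–7.97) and 7.87 CPM (5.48–10.9) in basal-like cells, 7.64 and 12.6 CPM in cells with Krt76 and little Krt10, and 20.8 and 18.96 CPM in cells with Krt76 and Krt10. In upper-like cells it reached 62.0 CPM (53.2–72.0) and 43.3 CPM (36.9–50.5), with a UMI in 48 of 79 and 41 of 47 cells. The upper-like level was thus 10.0-fold (7.43–13.7) and 5.50-fold (3.80–8.17) the basal-like level.

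The ligands Il18 and Il33 stood out in the same upper-like cells. Il18 measured 86.6 CPM (76.1–98.2) and 138 CPM (126–150) there, against 4.54 CPM (3.30–6.09) and 10.3 CPM (7.58–13.8) in basal-like cells, a ratio of 19.1 (13.8–27.0) and 13.3 (9.83–18.4). The layers between were lower than both ends, at 1.57 and 1.06 CPM in cells with Krt76 and Krt10. Il18 was concentrated in few cells, with a UMI in 27 of 79 and 17 of 47 upper-like cells. A single upper-like cell held 45 of 243 UMIs after CpG ODN and 154 of 518 after LPS. The share of B-like cells with an Il18 UMI was 1 of 285 and 1 of 69.

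Il33 in upper-like cells measured 77.4 CPM (67.4–88.4) and 87.2 CPM (78.0–97.1), against 1.86 and 2.47 CPM in basal-like cells. The ratio was 41.7 (25.7–71.6) and 35.2 (19.4–71.3). Unlike Il18, Il33 was spread over most upper-like cells, with a UMI in 49 of 79 and 32 of 47. Its level in the cells with Krt76 and Krt10 was 6.71 CPM after CpG ODN and 2.38 CPM after LPS, so the step to the upper-like cells was steep in both libraries. Il18 and Il33 were found in the same cell in 22 of the 27 and 14 of the 17 upper-like cells that had Il18.

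Il1a was not detected in basal-like cells at this depth. Basal-like cells held 0 Il1a UMIs among 1045 and 247 cells, which allows at most 0.309 and 0.675 CPM when 0 is taken to allow 3 UMIs. Upper-like cells held 45 and 28 UMIs, or 16.0 CPM (11.7–21.5) and 7.44 CPM (4.94–10.8), at least 51.8-fold and 11.03-fold higher. Cells with Krt76 and Krt10 lay between, at 2.51 and 3.62 CPM. Higher levels stood in small groups and rested on few cells. Odam-led cells had 46.4 CPM (11 UMIs in 3 cells) and 154 CPM (91 UMIs in 6 cells, 67 of them in 1 cell). Ltf-led gland-like cells had 83.1 and 75.9 CPM, from 2 and 3 cells. Il1rn was present in 11 of the 16 and 14 of the 14 upper-like cells with Il1a.

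Of the 10 genes, 7 had at least 10 UMIs over upper-like and basal-like cells in each library, and 4 of these (Il1a, Il1rn, Il18 and Il33) were at least 2-fold higher in upper-like cells with an interval off 1 in both libraries. None was higher in basal-like cells by that rule. Over all 11180 genes compared in this way, 11.1% were higher in upper-like and 36.5% in basal-like cells. The receptors did not follow the ligands. Il1r1 had a ratio of 1.36 (0.658–2.66) and 1.28 (0.538–3.07), Il1rap one of 1.08 (0.562–1.96) and 0.830 (0.483–1.41), and Il1r2 one of 1.44 (0.397–4.39) and 1.74 (0.902–3.43). The upper ends for Il1r1 and Il1r2 lie above the 2-fold used for a call, so a difference of that size was not detectable at this depth.

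**Figure D3:**
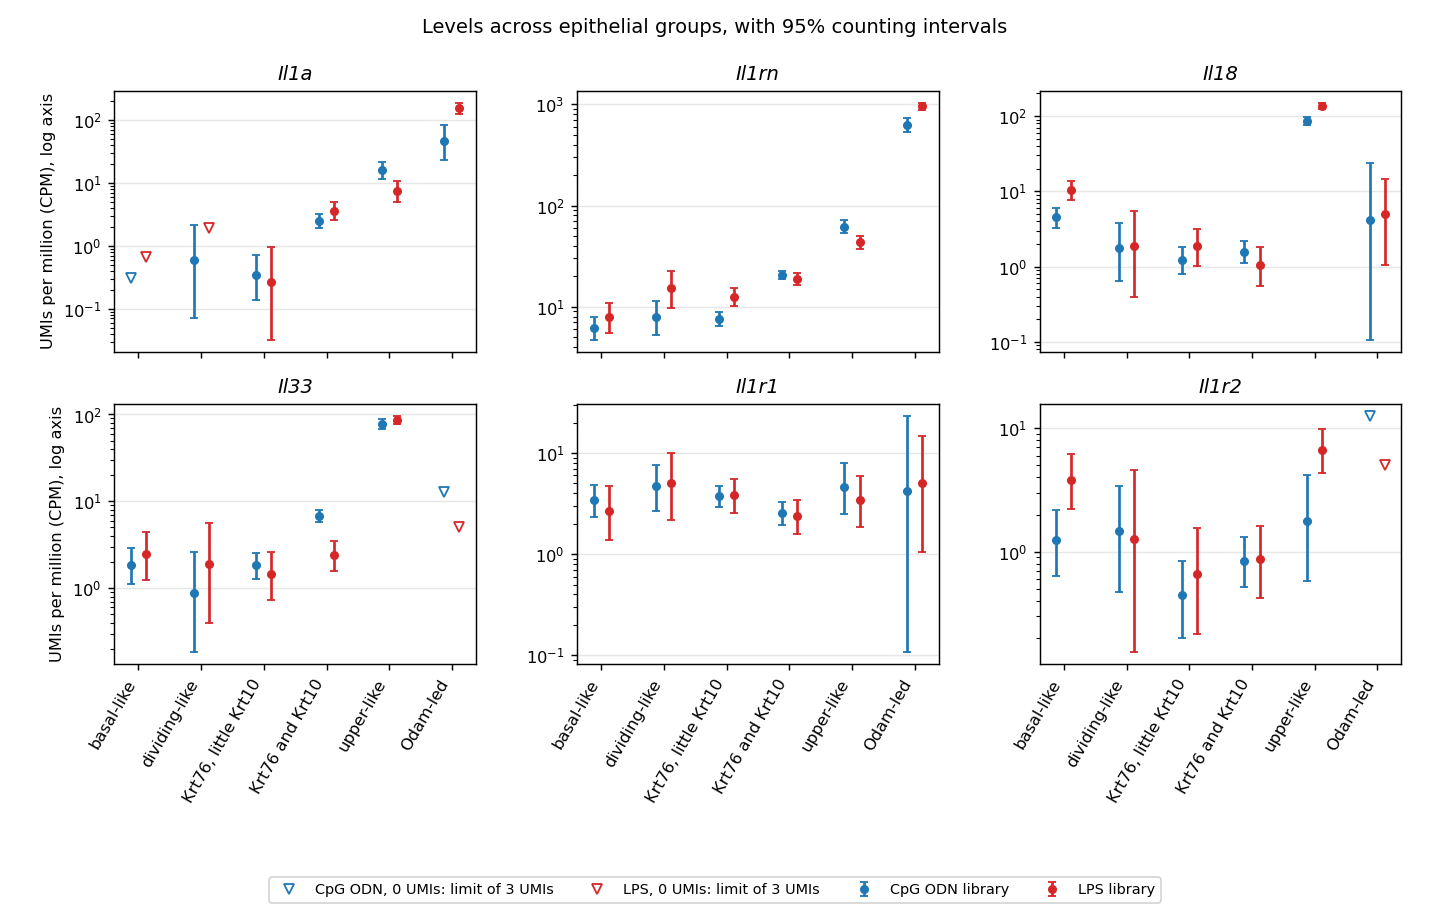
Levels of 6 of the genes in 6 epithelial groups (CPM on a log axis), with filled points for the CpG ODN (blue) and LPS (red) libraries, bars for 95% counting intervals, and open triangles at the limit of 3 UMIs where a group had none. Il1a, Il1rn, Il18 and Il33 were higher in upper-like than in basal-like cells in both libraries, whereas the intervals of Il1r1 overlapped across all 6 groups.

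Other genes of the pathway showed both patterns. Of the 32 listed, 21 had enough UMIs for the layer comparison, 11 were higher in upper-like cells in both libraries and 2 in basal-like cells. All 4 tested members of the IL-36 branch were among those higher in upper-like cells. Il1f6, which encodes IL-36α, measured 429 and 772 CPM in upper-like and 0.206 and 0.450 CPM in basal-like cells. Il1f9, which encodes IL-36γ, measured 114 and 133 CPM against 5.57 and 9.67 CPM. Il1f8 (IL-36β) and Il1f5 (the IL-36 receptor antagonist) completed the group. Of the inflammasome and processing genes, Pycard, which encodes the adaptor ASC, had ratios of 4.02 and 3.77 and Nlrp10 of 5.32 and 6.02, while Capn2, a calpain subunit, was lower at 0.174 and 0.165. Casp1, which encodes the protease that matures IL-1β and IL-18, was not called, at 42.0 and 44.5 CPM in basal-like and 89.5 and 85.6 CPM in upper-like cells. Of the signalling genes, Myd88, Irak2, Tollip, Tnfaip3 and Zc3h12a were higher in upper-like cells and Irak1 was lower. Tollip, Tnfaip3 and Zc3h12a encode brakes on the pathway. Tab2 was not called. The IL-36 receptor gene Il1rl2 had ratios of 2.06 and 1.62 and was not called, and Sigirr had too few UMIs.

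Odam-led cells held a different set of the ligands. Il1f9 measured 476 and 456 CPM, Il1f8 110 and 86.1 CPM and Il1f5 84.3 and 111 CPM, whereas Il33 had 0 UMIs in both libraries and Il18 had 1 and 3 UMIs. The limit that 0 UMIs allow for Il33 was 12.6 and 5.07 CPM, below its level in upper-like cells. The cluster is small, and Il1r2 also had 0 UMIs in it.

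Over all groups, Il33 was highest in fibroblast-like cells. It measured 374 CPM (337–414) after CpG ODN, in 110 of 234 cells, and 194 CPM (157–238) after LPS, in 18 of 53 cells. The CpG ODN/LPS ratio was 1.93 (interval up to 2.44) and fell just short of the 2-fold used for a call. Of 6 genes with enough UMIs in fibroblast-like cells, Il1b was called higher after LPS and Il1rl1 after CpG ODN, where 3.09% and 2.5% of all genes were, and both calls rested on 1 cell each. Myeloid-like cells had 0 Il33 UMIs. Reg3g-led gland-like cells had 16.9 and 35.8 CPM, and mural-like, endothelial-like and Schwann-like cells had 0 UMIs. Fibroblast-like cells held 45.4% and 18.7% of the Il33 UMIs and epithelial-like cells 54.4% and 81.1%.

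The signalling receptor of IL-1 was highest in fibroblast-like cells. Il1r1 measured 46.6 CPM (34.2–62.0) and 33.4 CPM (19.1–54.2) in fibroblast-like cells, 34.8 and 26.5 CPM in mural-like cells and 17.8 and 22.1 CPM in endothelial-like cells, whose intervals overlapped. Epithelial-like cells had 3.34 and 3.02 CPM. Because epithelial cells were many, they nevertheless held 76.8% and 79.1% of all Il1r1 UMIs. Il1rap measured 61.5 CPM (47.1–78.8) and 39.6 CPM (23.9–61.9) in fibroblast-like cells and 6.70 and 7.31 CPM in epithelial-like cells. In myeloid-like cells it was 8.91 and 104 CPM, from 2 and 9 UMIs. The highest Il1rap level, 83.6 and 105 CPM, was that of Schwann-like cells and rested on 4 and 4 UMIs.

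Il1b, the ligand made by activated phagocytes, was confined in large part to myeloid-like cells, which held 92.2% and 91.5% of its UMIs. The level there was 526 CPM (435–630) from 118 UMIs in 10 of 34 cells after CpG ODN, and 3243 CPM (2875–3645) from 281 UMIs in 8 of 13 cells after LPS. Per cell, the values ran from 0 to 5187 CPM with a median of 0 after CpG ODN and from 0 to 13449 CPM with a median of 1966 after LPS. The ranges overlapped, and in each library 2 cells held at least 50% of the UMIs. Epithelial-like cells had 9 and 9 Il1b UMIs, of which 7 and 7 fell in 4 and 3 upper-like cells that all held Il1rn as well. The 17 Il1b UMIs of LPS fibroblast-like cells all came from 1 cell that also had 156 UMIs of the neutrophil gene S100a8.

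All 5 genes with enough UMIs in myeloid-like cells (Il1a, Il1b, Il1rn, Il1r2 and Il1rap) were called higher after LPS, where 7.13% of 4219 genes were called higher after LPS and 6.52% higher after CpG ODN. The makeup of the myeloid-like cells also differed between the libraries, and its part in these ratios was not tested. The 10 neutrophil markers summed to 3332 and 21304 CPM in myeloid-like cells, and the 12 macrophage or monocyte markers to 13805 and 17265 CPM. Of the 6 cells in a neutrophil-like sub-cluster, 1 came from the CpG ODN and 5 from the LPS library. The 14 epithelial markers summed to 9328 and 450 CPM. Without the neutrophil-like sub-cluster, the Il1b ratio moved from 0.162 to 0.252 (0.196–0.324) and that of Il1rn from 0.227 to 0.554 (0.182–1.85), which is no longer called. Of the 150 LPS Il1b UMIs that remained, 129 lay in 1 cell, and without the top cell of each library as well the Il1b ratio was 0.934 (0.564–1.61). All 26 Il1r2 and all 9 Il1rap UMIs of the LPS library lay in the neutrophil-like sub-cluster, so without it 12 and 0 UMIs of Il1r2 and 2 and 0 of Il1rap were left. The Il1rap call was also lost without its top cells alone, at 0.101 (0.00205–1.02). Il1a had 14 and 42 UMIs, each in 1 cell, so its ratio of 0.129 compares a single cell with a single cell.

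The 800-gene minimum bore on Il1b, as it left out barcodes that held this gene. Neutrophils are known to hold little RNA, but whether this put barcodes below the minimum was not tested. Neutrophil-like barcodes, chosen by at least 4 of 10 neutrophil markers and under 5% keratin UMIs and not by any IL-1 gene, numbered 5 and 8 among myeloid-like cells and barcodes below the minimum. A further 2 LPS cells met the rule but were left out because they clustered as epithelial-like (0 Il1b UMIs) and fibroblast-like (the cell with 17). Of the 5 and 8, 4 and 3 fell below the minimum. Barcodes below the minimum held 31.9% and 23.4% of all Il1b UMIs in the libraries. Over all neutrophil-like barcodes Il1b measured 8334 CPM (6390–10684) and 13266 CPM (11589–15117), a CpG ODN/LPS ratio of 0.628 (0.466–0.836), which is not called. Single barcodes ran from 1770 to 31980 CPM and from 6349 to 43642 CPM and overlapped. Il1r2 measured 2016 and 2005 CPM in these barcodes, a ratio of 1.01 (0.509–1.90), and Il1rn 807 and 1769 CPM. Il1a had 0 UMIs.

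**Figure D4:**
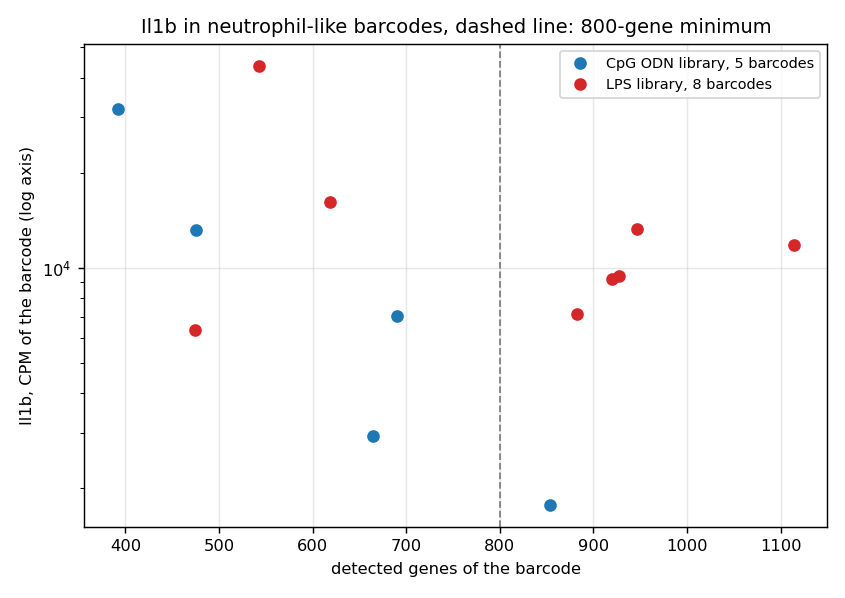
Il1b level (CPM of the barcode, log axis) against detected genes in the 5 CpG ODN (blue) and 8 LPS (red) neutrophil-like barcodes, with the 800-gene minimum as a dashed line. After CpG ODN 4 of 5 barcodes fell left of the line and after LPS 3 of 8, and the levels of the libraries overlapped.

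The balance of antagonist to agonist lay on opposite sides of 1 in epithelial-like and myeloid-like cells. In epithelial-like cells there were 6.47 (5.51–7.63) and 5.34 (4.63–6.18) Il1rn UMIs per UMI of Il1a and Il1b together. In myeloid-like cells the ratio was 0.0758 (0.0355–0.144) and 0.0526 (0.0303–0.0856), that is, many more agonist than antagonist UMIs. Within the epithelium the ratio fell with differentiation, from 22.1 (10.5–56.0) and 47.5 (12.8–398) in cells with Krt76 and little Krt10, through 8.31 (6.33–11.1) and 5.24 (3.74–7.51) in cells with Krt76 and Krt10, to 3.35 (2.44–4.65) and 4.66 (3.22–6.92) in upper-like cells. In the LPS library the last pair of intervals overlapped. Odam-led cells stood at 13.5 (7.30–27.5) and 6.13 (4.91–7.73). Gland-like cells differed. Ltf-led cells had 0.118 (0.0303–0.330) and 0.154 (0.0390–0.443), from 4 and 4 Il1rn UMIs, and Reg3g-led cells had 4.8 (1.80–16.1) and 0.333 (0.0580–1.34), from 24 and 3 Il1rn UMIs. Capture may differ between genes, so these ratios compare groups and are no ratio of proteins.

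**Figure D5:**
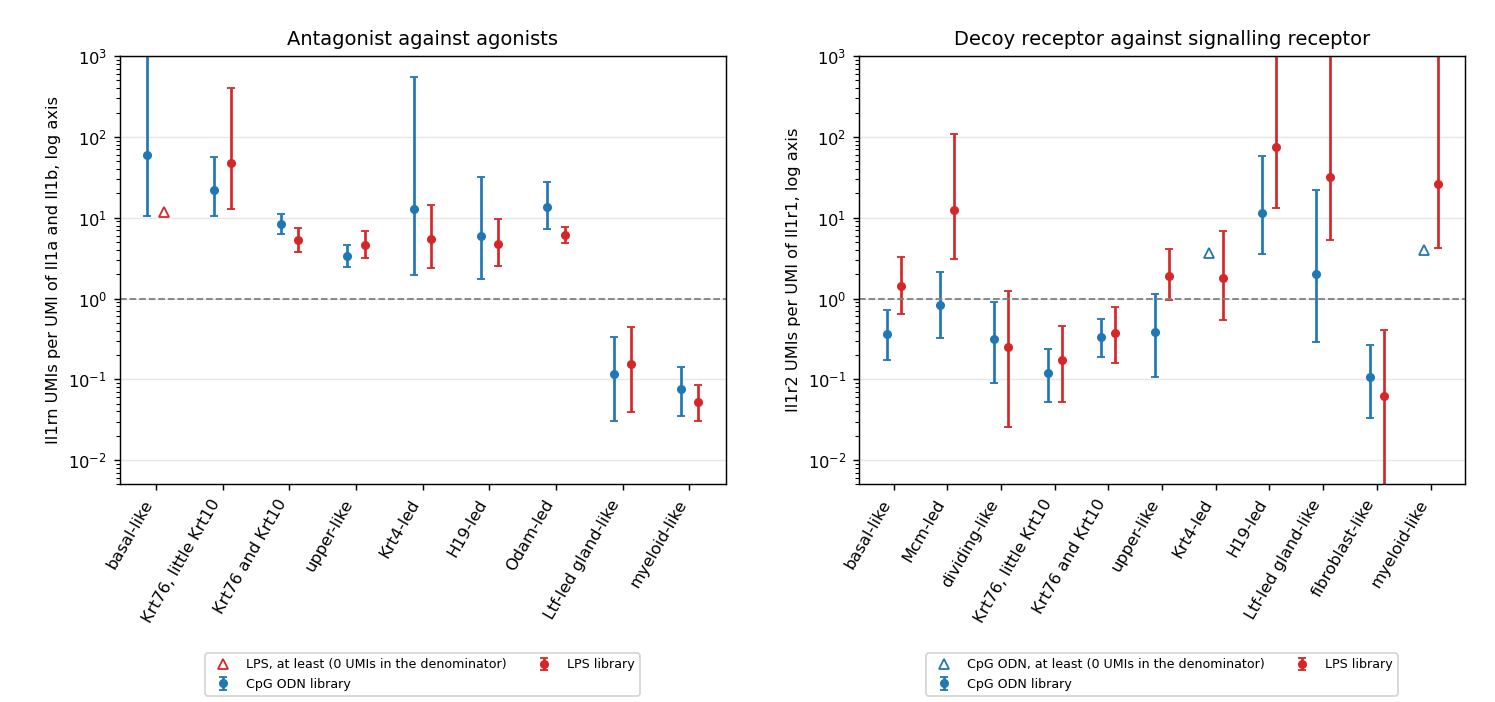
Il1rn UMIs per UMI of Il1a and Il1b (left) and Il1r2 UMIs per UMI of Il1r1 (right) by group, on log axes, with points for the CpG ODN (blue) and LPS (red) libraries, 95% counting intervals, open triangles for lower bounds and a dashed line at 1 (intervals that run past an axis are cut there). The antagonist outnumbered the agonists in the layers and fell below them in Ltf-led gland-like and myeloid-like cells. The decoy receptor led in H19-led and myeloid-like cells in both libraries with intervals above 1. It also led in Krt4-led and Ltf-led gland-like cells, with an interval that held 1 in 1 library.

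Within the epithelium the decoy receptor Il1r2 stood out in H19-led cells. H19-led cells, a group also led by Krt15, Cpn1 and Col17a1, held 29.6 CPM (20.5–41.3; 34 UMIs in 15 cells) and 37.1 CPM (29.2–46.4; 76 UMIs in 24 cells), against 1.24 and 3.82 CPM in basal-like cells. The 10 neutrophil markers summed to 7.83 and 17.1 CPM in H19-led cells. There were 11.3 (3.56–57.7) and 76 (13.2–3041) Il1r2 UMIs per Il1r1 UMI in them. Krt4-led cells also had more Il1r2 than Il1r1 UMIs, 11 against 0 and 9 against 5, with Il1r2 at 9.94 and 4.32 CPM. Their LPS ratio of 1.8 (0.542–6.84) had an interval that held 1. In cells with Krt76 and little Krt10 the ratio was reversed, at 0.118 (0.0522–0.237) and 0.172 (0.0521–0.450), and in fibroblast-like cells it was 0.106 (0.0330–0.266) and 0.0625 (0.00149–0.402). Several other high values came from 1 cell each. In Ltf-led gland-like cells of the LPS library 31 of 32 Il1r2 UMIs were in 1 cell, in Mcm-led cells all 25 and in upper-like cells 21 of 25. Myeloid-like cells had 53.5 and 300 CPM, from 12 and 26 UMIs against 0 and 1 of Il1r1. All 26 Il1r2 UMIs of the LPS library lay in the neutrophil-like sub-cluster.

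In epithelial-like cells as a whole, 3 of 9 genes with enough UMIs (Il1a, Il18 and Il1r2) were called higher after LPS and 0 after CpG ODN, where 4.87% and 1.62% of 15311 genes were called in these directions. The levels were 2.53 and 6.15 CPM for Il1a, 5.71 and 17.6 CPM for Il18 and 1.69 and 5.72 CPM for Il1r2. The CpG ODN/LPS ratios were 0.412 (0.335–0.507), 0.324 (0.284–0.369) and 0.296 (0.233–0.375). Il1rn, at 17.3 and 34.2 CPM, had a ratio of 0.506 (0.466–0.549) and missed the 2-fold limit. Leaving out 1 group at a time moved some of these ratios. The Il1a ratio was 0.656 (0.515–0.837) and the Il1rn ratio 0.818 (0.739–0.905) without Odam-led cells, but without upper-like cells they were 0.322 and 0.462, further from 1. The Il18 ratio was 0.649 (0.497–0.850) without upper-like cells. The Il1r2 ratio changed little, to 0.317 without H19-led, 0.311 without Mcm-led and 0.338 without Ltf-led cells. Without all 3 groups it was 0.479 (0.334–0.684) and was still called, from 63 and 68 UMIs. Of those 68 LPS UMIs, 21 came from 1 upper-like cell, and the ratio without that cell as well was not calculated. In the groups left out, 25 of 25 and 31 of 32 LPS UMIs of the Mcm-led and Ltf-led cells came from 1 cell each. Il33 turned from 0.6001 (0.524–0.688) to 1.55 (1.19–2.03) without upper-like cells, neither value being called. Il1r1, at 1.11 (0.875–1.41), and Il1rap, at 0.916 (0.784–1.07), were close to even with narrow intervals.

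Within single layers few of the genes differed between the libraries. In basal-like cells 2 of 6 tested genes were called higher after LPS, against 0.95% of all genes (0.917% after CpG ODN), namely Il18 with a ratio of 0.439 (interval up to 0.678) and Il1r2, whose call was lost without its top cells. Il18 was counted in 38 of 1045 and 36 of 247 basal-like cells, and its thinned share was 0.641% and 1.32%. In cells with Krt76 and Krt10 only Il33 was called, higher after CpG ODN (ratio 2.82, interval up to 4.41), where 1.49% of genes were (0.959% after LPS). The ratio was 2.89 without the top cell of each library. In upper-like cells Il18 had a ratio of 0.629 (0.538–0.734), which is not called, whereas Il1a (2.16, higher after CpG ODN) and Il1r2 (0.268, higher after LPS) were called and both calls were lost without the top cells, at 1.32 and 1.00. The backgrounds there were 2.21% and 2.46%. None was called among the 6 tested in cells with Krt76 and little Krt10, where 0.997% of genes were higher after CpG ODN and 1% after LPS. None was called among the 5 tested in H19-led cells either, where the shares were 0.89% and 1.8%. In Odam-led cells Il1a was called higher after LPS, where 2.96% of genes were and 3.76% were higher after CpG ODN, and the call was lost without the top cells. Il1r2 was also called higher after LPS in Mcm-led cells (0.152) and Ltf-led gland-like cells (0.105). Both calls were lost without the top cells, and the shares over all genes were not calculated for these groups.

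In the Reg3g-led gland-like cells Il1rn was higher after CpG ODN, at 33.8 CPM from 24 UMIs against 5.11 CPM from 3 UMIs, a ratio of 6.61 (2.01–34.3). In this group 4.88% of genes were called in that direction and 8.06% in the other. The macrophage or monocyte list summed to 50.7 and 2701 CPM in the same cells, all of it from 3 of its 12 genes (Lyz2, Cd68 and Cd14). Csf1r, C1qa, C1qb, C1qc, Adgre1, Ms4a7, Mrc1, Ccr2 and Fcgr1 had 0 UMIs in both libraries. The part of the list in the Il1rn ratio was not tested.

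Of the 27 pathway genes with enough UMIs in epithelial-like cells, 5 were called higher after LPS (Il1f6, Il1f8, Il1f5, Il1f10 and Casp4) and 0 after CpG ODN, against 4.87% and 1.62% of all genes. Il1f6 measured 19.8 and 84.3 CPM and Casp4, which encodes the intracellular sensor of lipopolysaccharide, 2.44 and 6.03 CPM. Within upper-like cells, which held 1202 of 1300 and 2904 of 2962 epithelial Il1f6 UMIs and made up more of the LPS epithelium, the ratios were 0.555 (0.519–0.594) for Il1f6, 1.01 (0.794–1.29) for Il1f8 and 0.796 (0.713–0.888) for Il1f5, none of them called. Casp4 was called there too, at 0.383 (0.127–0.982) from 6 and 21 UMIs. Casp1 (56.5 and 55.5 CPM), Pycard (498 and 511 CPM), Il1rl2 (9.92 and 10.4 CPM), Sigirr (0.687 and 1.22 CPM), Il1f9 (32.2 and 46.0 CPM), Tab2 (43.0 and 47.7 CPM) and Irak1 (37.5 and 36.6 CPM) were not called.

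The receptors of IL-18 and IL-33 were rare. Il18r1 was highest in T-like cells, at 35.2 and 35.8 CPM from 9 and 5 UMIs, and a further 10 UMIs in 4 cells of the LPS library lay in the unnamed Muc5b-led cluster. Il1rl1 had 3 UMIs in T-like cells after CpG ODN and 8 UMIs, all in 1 cell, after LPS, a difference called higher after LPS. In T-like cells 2.43% of genes were called higher after LPS and as many after CpG ODN. It also had 8 UMIs in 5 myeloid-like cells and 13 UMIs in fibroblast-like cells after CpG ODN, 12 of the latter in 1 cell. With 27 and 11 UMIs of Il1rl1 and 25 and 19 of Il18r1 in all, differences between the ligands were not detectable at this depth beyond single cells.

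The genes whose levels followed each of these genes most closely were found by Pearson's r of log2(CPM + 10) over 28 points, 14 groups in each of 2 libraries, among 11294 genes. Groups with fewer than 20 cells in a library were left out, so that myeloid-like and Odam-led cells are not among the points. The points share libraries and depth, and the r values are descriptions. Il1rn went with Ankrd22 (0.91), Phlda2 (0.90) and Tmprss11a (0.89). Il18 went with 2300002M23Rik (0.96), the cornified envelope gene Lce3e and Il1f6. Il33 went with Ccdc74a (0.91), Cemip (0.89) and Creb3l1 (0.87). Il1r1 went with Fhl1 (0.96), Csf1 (0.96) and Rcn3, and Il1rap with Prrx2 (0.91), Igf1 (0.90) and Vcan (0.90). Il1r2 went with Cpn1 (0.82), H19 (0.79) and Upk3bl (0.77), and Il1a with BC016579 (0.86), Akr1c18 (0.85) and Dhrs9 (0.83). Il1b reached the minimum number of UMIs only through the myeloid-like cells, which held 118 and 281 of its 435 UMIs and are not among the points. At the points most groups had 0 or few Il1b UMIs, and 17 UMIs came from the 1 fibroblast-like cell with neutrophil genes. Its r values with Ccl9 (0.97), S100a9 (0.97) and S100a8 (0.93) therefore rest largely on that cell and describe no pattern over the groups. Il1rl1 and Il18r1 had fewer than the 200 UMIs asked for.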

How the data were processed

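Single-cell RNA-seq (10x) was made from 2 libraries of mouse palatal gingiva, digested with collagenase II and then trypsin. The deposited matrices hold raw UMI counts per gene and barcode, made by the authors with Cell Ranger 4.0.0 per the file headers. Seurat is named in the submitters' processing notes, and the genome build is not given in the sources used here. Coordinates come from GENCODE M21 and promoters from RefSeq, both GRCm38, and 32158 of 32285 gene identifiers matched GENCODE M21.

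The minimum of 800 detected genes per cell follows the methods of the study. Both libraries were clustered together (Leiden, resolution 1.0, 2000 variable genes, 30 components, 15 neighbours) without 42 IL-1 genes, and clusters were named from marker lists. Of 29 clusters, 28 were named. UMIs were summed per group and library and scaled to CPM. Levels carry exact Poisson intervals, ratios exact conditional binomial intervals and shares of cells Clopper-Pearson intervals (95%). Molecules of 1 cell are not independent, so all intervals cover counting error only. Thinned shares are expected values at 1500 UMIs per cell, without shallower cells. A floor of 3 counts per library stands for 0 UMIs. With 1 library per ligand no test was made. A ratio was called at 2-fold or more with an interval off 1 and at least 10 UMIs over both libraries, and between layers with the same call in both libraries.

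The doublet caller marked 0.389% and 0.157% of the cells and has not worked, so doublets were kept, and cells with the highest 5% of doublet scores were left out as an alternative chosen after seeing the data. The rule for calling ratios was tested on simulated independent counts, with no clumping of molecules in single cells. Clustering and cluster naming were not tested in this way. The 10 genes, the 32 pathway genes, the marker lists and the tests were chosen with earlier results of these data known. Named were the 10 genes, pathway genes called or with the most UMIs of their list, and the 3 genes most alike in pattern. Software was Python 3.11.15, numpy 2.4.6, scipy 1.17.1, pandas 2.3.3, scikit-learn 1.9.0, leidenalg 0.10.2, igraph 0.11.9 and matplotlib 3.10.9.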

Additional observations from a re-analysis of the deposited data

Results flagged for a closer look

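Neutrophil-like barcodes under the 800-gene minimum, which enter none of the cell classes, held IL-1 gene UMIs. There were 58 Il1b, 15 Il1r2 and 6 Il1rn UMIs in 4 barcodes of the CpG ODN library, and 94 Il1b, 8 Il1r2 and 19 Il1rn UMIs in 3 barcodes of the LPS library.

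For 3 genes the CpG ODN/LPS ratio was called in opposite directions in different groups, and the difference between the groups was not tested. Il1a had a ratio of 2.16 in upper-like cells, 0.129 in myeloid-like cells and 0.302 in Odam-led cells, and none of these was still called once the top cell for that gene was removed from both libraries. Il1rn had a ratio of 6.61 in Reg3g-led gland-like cells and 0.227 in myeloid-like cells, and both were still called after that step, though the second was not without the neutrophil-like sub-cluster. Il1rl1 was at least 2.06-fold higher after CpG ODN in fibroblast-like cells and had a ratio of 0.205 in T-like cells, each resting on 1 cell.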

How the results depend on the processing

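No paired analysis was possible because there is a single library for every ligand. Of the 10 genes, 6 were called between the libraries in the class where each was highest, all higher after LPS. Over all genes, 7.13% were called in that direction in myeloid-like, 4.87% in epithelial-like and 2.43% in T-like cells. Il1rap had too few UMIs in Schwann-like cells for a call. The Il1a call in myeloid-like and the Il1rl1 call in T-like cells were lost without the top cells. The count was 1 when each library was clustered on its own or when classes were set cell by cell from signature genes. In the first of these settings myeloid-like and T-like classes were not found in 1 library. For the second the cause was not tested. The LPS epithelial ratio of Il1rn to Il1a and Il1b was 5.34, and 6.59 once the top cell of a gene was removed. Il1rn in myeloid-like cells turned from 0.227 to 1.42 with signature classes and to 2.38 (8 and 1 UMIs) without the neutrophil-like sub-cluster and the top cell of both libraries, and Il1r2 from 0.178 to 1.01 over neutrophil-like barcodes of any gene count. The cause was not tested. Il1r2, which was not called between the layers, had an upper-like to basal-like ratio of 1.74 after LPS, 0.207 with separate clustering and 0.434 without its top cells. The Il1b ratio in myeloid-like cells stayed below 1, between 0.0936 and 0.934, the last of these without the same sub-cluster and top cells, a setting chosen after seeing the data. The upper-like to basal-like ratios stayed above 1, at 6.75 to 14.9 and 4.87 to 8.77 for Il1rn, 5.54 to 31.0 and 10.8 to 26.5 for Il18, and 17.9 to 45.5 and 31.2 to 59.2 for Il33. Il1a had 0 basal-like UMIs, so its ratio has no value to vary. The single library for every ligand, groups of 17 cells or fewer and genes with few UMIs limit these ratios.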
